A study of Mus musculus with 4 samples.

Results

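Chromosome 4 carried 1656 of the 25957 H3K27me3 peaks listed in the mouse glioblastoma line GL261, 1079 from irradiated and 577 from control cells. They were taken as the unique intervals of the lists of both libraries that lie on chromosome 4 of the mm10 build. The stretch from 125000001 to 140000000 is called the distal interval and is described apart, each peak being placed by its midpoint. That stretch was chosen by the difference in peak numbers between the lists, so the values that set it apart are a description and carry no test.

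H3K27me3 ChIP-seq was done in irradiated GL261 cells and in control GL261 cells, with 1 library for each, and the input library of each was not analysed here. Both groups are the same cell line, an established tumour line grown in culture. IR in the labels was taken to mean irradiated, after the series title, and the sources used here give no dose or harvest time. The lists hold no expression values, so the cell type was not checked against marker genes. With no replicates, no difference could be set against replicate error, and every interval in brackets is a 95% exact (Clopper-Pearson) interval, or one derived from it for a ratio of counts, that covers counting error only.

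H3K27me3 is placed by Polycomb repressive complex 2, which is drawn to CpG-rich promoters of silent developmental genes, where the mark forms broad domains. It is also spread thinly over silent intergenic chromatin and gene-poor regions. Distal mouse chromosome 4 is gene-rich, and its middle part holds long gene-poor stretches and clusters of interferon and pheromone carrier genes.

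Few of the peaks lay on promoters, and those that did lay on CpG-poor ones. Of 2053 promoter windows of chromosome 4 in RefSeq (250 bases before to 50 after a start), 7 held an irradiated peak, 5 a control peak and 0 both. These 12 make 0.585% of the windows, where 0.685% of all windows of the genome held a peak of either list. They are not all separate sites, as overlapping windows of the lncRNA gene Gm42292 share the same irradiated peak. The window of Gm40239, another lncRNA gene, held only 2 bases of its peak. The sequences here, the 250 bases before the start from RefSeq on mm10, show the contrast, with each CpG in capitals. Those of Lao1 (chr4:118961717-118961966, plus strand) and Mup4 (chr4:59960668-59960917, minus strand) lay in part under a peak, which covered 198 and 255 bases of their windows. Grik3 (chr4:125490446-125490695, plus strand) and Wnt4 (chr4:137277385-137277634, plus strand) are CpG-rich starts of the distal interval without a peak, chosen after their values were seen.
Lao1: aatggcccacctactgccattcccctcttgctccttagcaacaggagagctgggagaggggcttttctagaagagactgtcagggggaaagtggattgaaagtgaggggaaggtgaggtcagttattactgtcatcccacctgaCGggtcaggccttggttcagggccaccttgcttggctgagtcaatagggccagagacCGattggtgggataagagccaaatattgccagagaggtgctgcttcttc
Mup4: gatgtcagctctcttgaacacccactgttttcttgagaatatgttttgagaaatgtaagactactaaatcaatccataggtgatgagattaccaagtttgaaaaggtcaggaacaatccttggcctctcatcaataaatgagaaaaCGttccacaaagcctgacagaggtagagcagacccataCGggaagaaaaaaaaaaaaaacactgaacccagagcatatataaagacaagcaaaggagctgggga
Grik3: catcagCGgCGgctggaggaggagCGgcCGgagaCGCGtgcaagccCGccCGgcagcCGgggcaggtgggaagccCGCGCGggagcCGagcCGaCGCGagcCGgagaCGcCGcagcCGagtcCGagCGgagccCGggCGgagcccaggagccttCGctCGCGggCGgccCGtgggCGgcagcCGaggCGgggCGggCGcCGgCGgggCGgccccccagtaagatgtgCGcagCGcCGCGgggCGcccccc
Wnt4: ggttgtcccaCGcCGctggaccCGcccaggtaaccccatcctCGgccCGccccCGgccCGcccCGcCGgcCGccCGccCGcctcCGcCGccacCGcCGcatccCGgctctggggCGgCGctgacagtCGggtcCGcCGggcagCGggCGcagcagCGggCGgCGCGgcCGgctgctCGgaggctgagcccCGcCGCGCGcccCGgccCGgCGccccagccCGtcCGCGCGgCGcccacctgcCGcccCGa

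Lao1 and Mup4 hold 2 CpG each in the bases shown, Grik3 holds 42 and Wnt4 holds 44. The dinucleotide CG reads the same on both strands. The 12 windows with a peak held 1 to 4 CpG, with a median of 2, whereas the median over all windows of the chromosome was 8 (quartiles 3 and 22). Of the 1020 windows with more than 8 CpG, 0 held a peak, and in the rest of the genome 4 of 14020 did. Elsewhere in the genome the windows with a peak had a median of 2 CpG too.

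**Figure D1:**
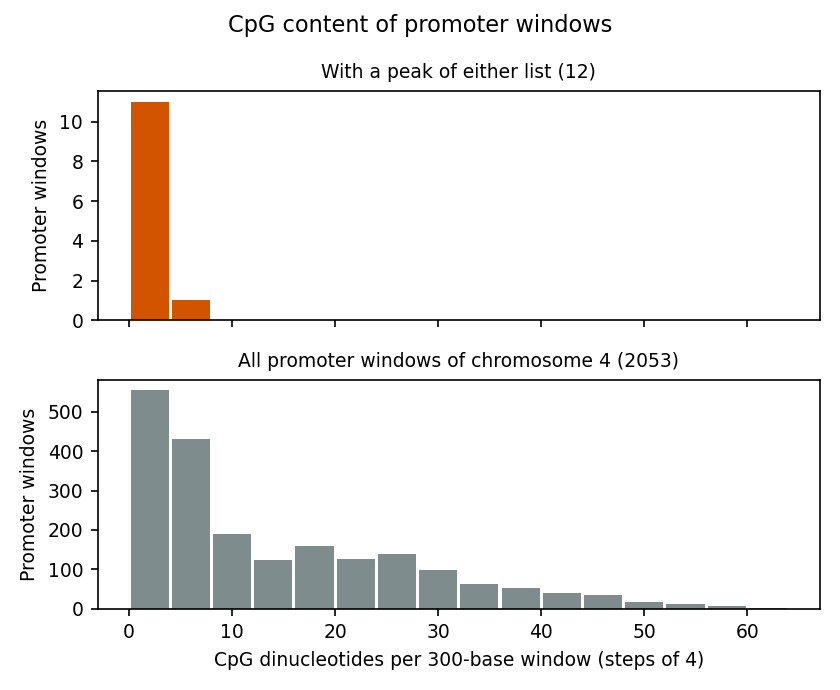
Promoter windows by their number of CpG dinucleotides, in steps of 4, for windows with a peak of either list (top) and for all windows of chromosome 4 (bottom). The 12 windows with a peak all hold 4 CpG or fewer, whereas the windows of the chromosome reach beyond 50.

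Among the promoters with a peak, that of Lao1, which encodes an L-amino acid oxidase, had the only irradiated peak with a q of at most 0.05. The peak, at 118961819 to 118962754, rested on 14 reads at the summit and had a fold of 5.14 (q = 0.0119). The fold and q are the authors' own values for the summit, an enrichment over background and a p adjusted over many positions. The control peak at the start of Mup4, a major urinary protein gene whose product binds pheromones, had 7 reads, a fold of 2.78 (q = 1). That of Ifna16, an interferon alpha gene, had 8 reads, a fold of 3.11 (q = 1). The control peaks over the olfactory receptor starts Olfr62 and Olfr1329 had folds of 3.12 and 3.43. All 5 control peaks over promoter windows had 9 reads or fewer, close to the smallest number listed at the lowest background, which was 8 for irradiated and 7 for control cells.

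Over the whole chromosome the lists held 1079 irradiated and 577 control peaks, a ratio of 1.87 (1.69 to 2.07). In the rest of the genome the lists held 15012 irradiated and 9289 control peaks, a ratio of 1.62 (1.57 to 1.66). The distal interval held 150 irradiated and 24 control peaks, a ratio of 6.25 (4.04 to 10.1). The chromosome without it held 929 irradiated and 553 control peaks, a ratio of 1.68 (1.51 to 1.87) whose interval takes in the value for the rest of the genome. The interval held 13.9% (11.9 to 16.1) of the irradiated peaks of the chromosome and 4.16% (2.68 to 6.13) of the control peaks. Of the 502 peaks by which the irradiated list exceeded the control list on chromosome 4, 25.1% lay there. The irradiated peaks of the interval covered 60.1 kb and the control peaks 9.63 kb.

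Few peaks of the interval were strong. A q of at most 0.05 was reached by 9 of its irradiated peaks (6%, 2.78 to 11.1) and 2 of its control peaks (8.33%, 1.03 to 27), where 15.2% of all irradiated and 6.84% of all control peaks reached it. On the rest of the chromosome 120 irradiated peaks (12.9%, 10.8 to 15.2) and 31 control peaks (5.61%, 3.84 to 7.86) did. At a q of at most 1e-05 the chromosome kept 5 irradiated and 4 control peaks, none of them in the interval, where 1.23% of all irradiated and 1.37% of all control peaks were so strong. The median fold in the interval was 3.27 (quartiles 2.88 and 3.78) for irradiated and 3.29 (3.02 and 3.47) for control peaks, and on the rest of the chromosome 3.67 and 3.39. With −log10 p at 5 or more, the interval held 14 irradiated and 3 control peaks, a ratio of 4.67 (1.3 to 25.3), and the rest of the chromosome 256 irradiated and 52 control peaks, a ratio of 4.92, so the interval no longer stood above the rest. With q at 0.05 or less the ratio was 4.5 (0.931 to 42.8) in the interval and 3.87 outside it. Both ratios of the interval rest on few peaks. When equal numbers of the strongest peaks were taken from each list, the interval held 71 irradiated and 24 control peaks, a ratio of 2.96 (1.84 to 4.92), and the rest of the chromosome 564 irradiated and 553 control peaks, a ratio of 1.02 (0.905 to 1.15).

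The peaks of the interval also stood over a higher background. The background at each summit, recovered from the authors' fold and p, is in scaled reads, the unit in which 1 ChIP read counts as 0.554 in the irradiated and 0.62 in the control list. It was at least 1.5 times the lowest of its list, 0.704 in the irradiated and 0.918 in the control list, at 81 irradiated peaks of the interval (54.0%, 45.7 to 62.2) and at 7 control peaks (29.2%, 12.6 to 51.1). On the rest of the chromosome it was so at 27.7% (24.8 to 30.7) of irradiated and 12.8% (10.2 to 15.9) of control peaks, and over all peaks of the genome at 26.4% and 14.9%. The median background of the irradiated peaks was 1.16 scaled reads in the interval and 0.891 on the rest of the chromosome, and that of the control peaks 1.00 and 0.918. Among peaks under this limit the interval held 69 irradiated and 17 control peaks, a ratio of 4.06 (2.36 to 7.36), against 672 irradiated and 482 control peaks on the rest of the chromosome, a ratio of 1.39 (1.24 to 1.57). Over raised background it held 81 irradiated and 7 control peaks, a ratio of 11.6 (5.37 to 29.7), against 257 irradiated and 71 control peaks on the rest of the chromosome, a ratio of 3.62 (2.77 to 4.78). The limit follows the lowest background of each list, so in scaled reads it lies lower in the irradiated list. A background counted as raised there can fall under the limit in the control list, so these ratios and shares do not compare peaks of equal background. The part of the background in the surplus was not tested.

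**Figure D2:**
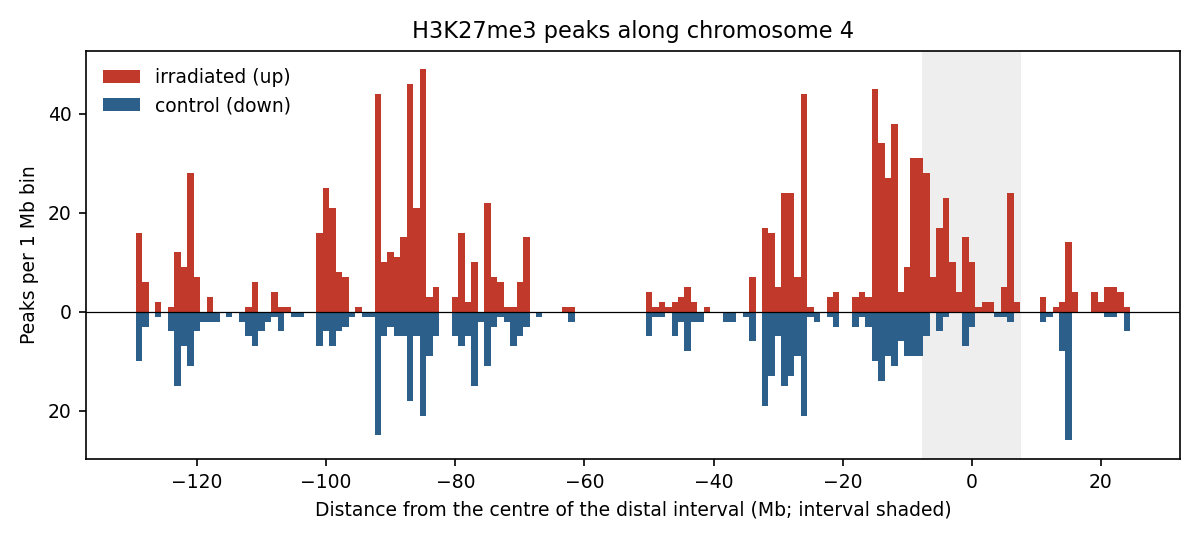
Irradiated peaks (red, upward) and control peaks (blue, downward) in bins of 1 Mb along chromosome 4, by distance from the centre of the distal interval, which is shaded. Irradiated peaks outnumber control peaks in 14 of its 15 bins, and a control surplus stands to its right, at the zinc finger genes near the end of the chromosome.

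At the scale of 1 Mb bins the lists were alike in where their peaks lay on the chromosome, but few peaks overlapped. Of the irradiated peaks of the chromosome 10.0% overlapped a control peak by at least 1 bp, against 13.3% of all irradiated peaks. Of its control peaks 18.0% overlapped an irradiated one, against 21.4% of all control peaks. Outside the distal interval the numbers per bin had a Spearman correlation of 0.8 between the lists, and across the 15 bins within it one of 0.676. These bins share 2 libraries and are not replicates. Of the bins outside, 56 had more irradiated peaks, 40 had more control peaks, 8 had equal numbers and 35 had none. In the interval 14 bins had more irradiated peaks and 1 had more control peaks. In bins that held 10 or more peaks over both lists, the irradiated number was at least 3 times the control number in 6 of 7 bins of the interval and in 11 of 46 bins elsewhere on the chromosome, where it was in 27.5% of such bins of the genome. The interval was chosen by this difference, so the contrast of its bins with the others is a description.

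**Figure D3:**
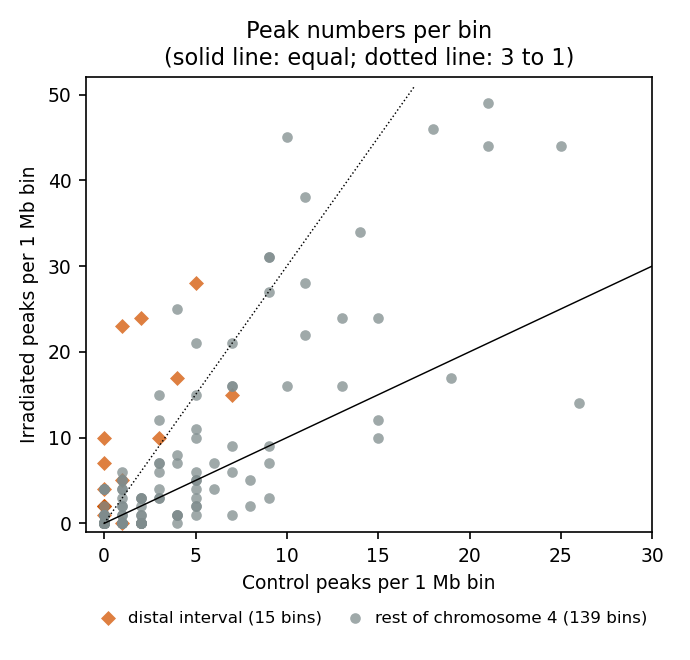
Irradiated against control peaks per 1 Mb bin of chromosome 4, for the distal interval (diamonds) and the rest (circles). The solid line marks equal numbers and the dotted line 3 irradiated peaks for each control peak. The 3 fullest bins of the interval, with 28 irradiated and 5 control, 24 and 2, and 23 and 1 peaks, lie far above the dotted line.

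The fullest bin of the interval, which starts at 125000001, held 28 irradiated and 5 control peaks. The bin that starts at 138000001 held 24 irradiated and 2 control peaks, that at 128000001 held 23 irradiated and 1 control, that at 127000001 held 17 irradiated and 4 control, and that at 131000001 held 15 irradiated and 7 control. The peaks lay in groups. Irradiated peaks no more than 100 kb apart formed 14 clusters of at least 3 peaks, and 7 of these clusters held no control peak, against 20 of 82 irradiated clusters outside. With few control peaks in the interval, fewer of its irradiated clusters can hold one. The control peaks of the interval formed 3 such clusters with 11 peaks, of which 0 lacked an irradiated peak, against 12 of 74 control clusters outside.

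The most peaks, 24 irradiated and 2 control, lay in a cluster of 484 kb from 138465998 to 138950456. It spans Vwa5b1, a gene of the von Willebrand factor A domain family. It also spans the 5 secreted phospholipase A2 genes taken on chromosome 4, whose enzymes release fatty acids from membrane lipids. Its median irradiated background was 2.22 times the lowest. A cluster of 22 irradiated peaks and 1 control peak, from 127999010 to 128518593, lay within Csmd2. Around Grik3, the gene of a kainate-type glutamate receptor subunit, 16 irradiated and 4 control peaks lay before the gene (125173643 to 125464658) and 7 irradiated and 1 control peak after it (125736473 to 125844870), while the gene with 2000 bp on either side held none. A further 11 irradiated and 3 control peaks lay in a stretch with no protein-coding gene next to Ptpru, a receptor tyrosine phosphatase gene, from 131560968 to 131760777, and a cluster of 8 irradiated peaks and 0 control peaks, from 125959032 to 126036233, lay mostly before Csf3r and ended in it.

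Within the interval peak and gene numbers were not parallel. It held 260 protein-coding genes, 17.3 per Mb, against 7.49 per Mb on the rest of the chromosome. The bin with the most genes, 31, starts at 129000001 and held 10 irradiated and 0 control peaks. The 5 bins from 133000001 to 138000000, picked after their values were seen, held 103 of these genes and 10 irradiated and 2 control peaks. The 3 bins that follow the interval, up to 143000000, held 41 genes and 0 peaks of either list. Across the 15 bins the number of irradiated peaks had a Spearman correlation of −0.442 with the number of genes, and that of control peaks −0.662. Across the bins outside, the correlations were 0.534 for irradiated and 0.423 for control peaks, of the opposite sign. The long gene-poor stretch from 64 to 82 Mb, with 1.72 genes per Mb, held 2 irradiated and 3 control peaks. Of the irradiated peaks in the interval 25.3% (18.6 to 33.1) and of the control peaks 12.5% (2.66 to 32.4) lay in a protein-coding gene, against 35.8% and 29.8% over all peaks of the lists. Within 1000 bp of a start lay 2 of the 150 irradiated peaks (1.33%, 0.162 to 4.73) and 0 of the 24 control peaks (0%, 0 to 14.2), where 2.35% of all irradiated and 2.14% of all control peaks lay so close.

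The interval shared few sites between the libraries. Of its irradiated peaks 3 (2.00%, 0.414 to 5.73) overlapped a control peak by at least 1 bp, against 11.3% (9.34 to 13.5) on the rest of the chromosome, and 13.3% of all irradiated peaks did. Of its control peaks 3 (12.5%, 2.66 to 32.4) overlapped an irradiated one, against 18.3% (15.1 to 21.7) on the rest of the chromosome, and 21.4% of all control peaks did. With few control peaks in the interval, fewer irradiated peaks can meet one. The strongest shared site, near Oprd1, had 13 reads, a fold of 4.34 (q = 0.0292) in irradiated cells (132105296 to 132105961) and 12 reads, a fold of 2.81 (q = 1) in control cells (132105217 to 132105939). The site near Zc3h12a, at a distance of 56.5 kb, had a fold of 3.96 in irradiated and 2.62 in control cells. The last one, 159 kb from Grik3, had a fold of 2.83 in irradiated and 3.12 in control cells.

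**Figure D4:**
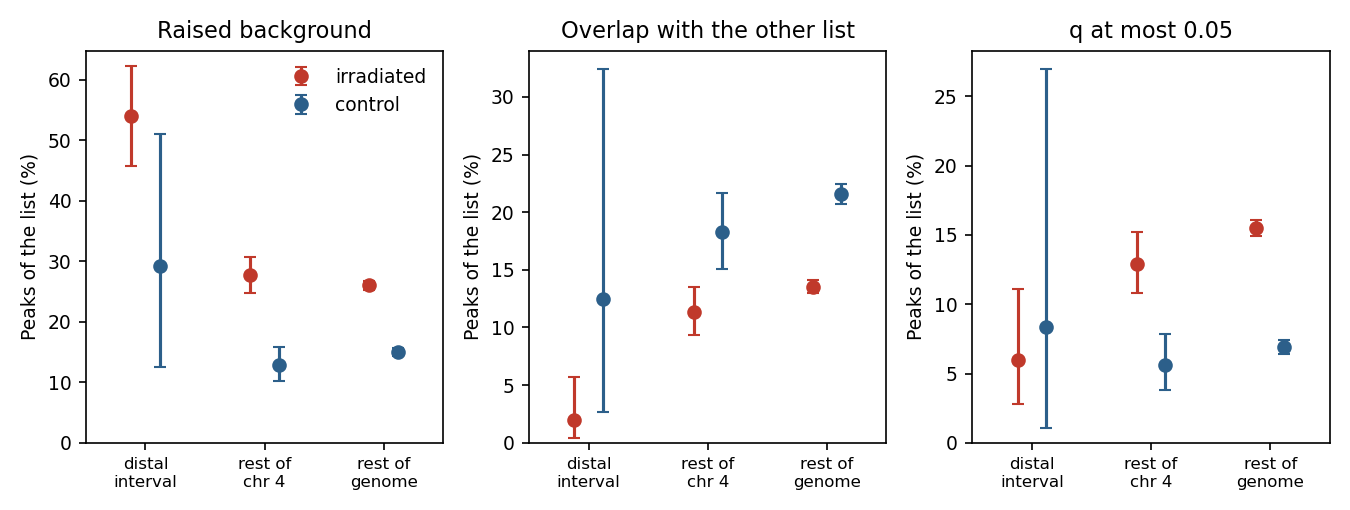
Share of irradiated (red) and control (blue) peaks over raised background (at least 1.5 times the lowest of the list), overlapping a peak of the other list, and with a q of at most 0.05, in the distal interval, the rest of chromosome 4 and the rest of the genome. Points are percentages with 95% exact intervals. Irradiated peaks of the interval stand over raised background in 54.0% of cases and overlap a control peak in 2.00%.

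Some of the strongest peaks of the interval lay far from protein-coding genes, and others lay in or near such genes. Among irradiated peaks tied at the lowest q, that at 131341732 to 131342372 had 16 reads over a background of 0.999 scaled reads, a fold of 4.93 (q = 0.0119). It lay 386 kb from Matn1, which encodes a cartilage matrix protein. Another with a q of 0.0119, at 137822494 to 137822866, lay 26.1 kb from Alpl, the tissue-nonspecific alkaline phosphatase gene, and had 15 reads and a fold of 4.65. A further peak tied at this q, at 129392172 to 129393066, lay 14.1 kb from Zbtb8a and had 17 reads and a fold of 4.48. The strongest control peak, at 131223537 to 131223821, rested on 17 reads at a fold of 5.33 (q = 0.00181), and no irradiated peak overlapped it. It too lay in the stretch past Matn1, at a distance of 268 kb. At the lower edge, the last irradiated peak outside, at 124563610 to 124564045, had a fold of 2.83, and the first inside, at 125012726 to 125013036, had a fold of 2.64. At the far end the last irradiated peak, at 139733389 to 139733658, had a fold of 3.5, and the next one came at 143047105, with a fold of 3.21.

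A gene counted as marked if it had a peak in it or no more than 2000 bp away. A longer gene has more room for a peak, and no share of genes was adjusted for gene length. Of 1301 protein-coding genes of chromosome 4, 69 had irradiated peaks alone (5.3%), 42 control peaks alone (3.23%) and 46 peaks of both lists (3.54%). Over all 21779 protein-coding genes the shares were 4.55%, 2.4% and 3.69%. In the interval, 10 of 261 genes that touch it had irradiated peaks alone (3.83%, 1.85 to 6.93), 2 control peaks alone and 2 peaks of both lists. With a q of at most 0.05 required, 24 genes of the chromosome had irradiated peaks alone, 5 control peaks alone and 5 both, where 1.72%, 0.152% and 0.367% of all genes did and 2.24% had such a peak in either list. In the interval 1 gene remained, Csmd2, with an irradiated peak.

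Csmd2 encodes a large transmembrane protein with CUB and sushi domains that is expressed in the brain, and it spans 127986505 to 128567660. It held 22 irradiated peaks and 1 control peak. The strongest irradiated peak, at 128518245 to 128518593, had 17 reads over a background of 1.54 scaled reads, a fold of 4.10 (q = 0.0326). The control peak, at 128347875 to 128348235, had 9 reads over 1.02, a fold of 3.25 (q = 0.831). Vwa5b1 (138564229 to 138635992) had 7 irradiated peaks in it or within 2000 bp, 6 of them inside, the strongest with 13 reads, a fold of 3.79 (q = 0.062), and 1 control peak just outside the gene with 17 reads over a background of 3.12 scaled reads, a fold of 2.8 (q = 0.831). These 2 genes were the only ones of the interval with peaks of both lists.

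The other marked genes of the interval held 1 to 3 peaks each. Ptafr, which encodes the platelet-activating factor receptor, held 3 irradiated and 0 control peaks, the strongest with 11 reads, a fold of 2.98 (q = 0.431). Csf3r, the receptor gene for granulocyte colony-stimulating factor, held 2, with a fold of 3.18 (q = 0.38) at the strongest. Zbtb8b, a zinc finger gene, held 2, with a fold of 3.66 (q = 0.0927). Lck, the gene of a T cell kinase, had 1 irradiated peak with a fold of 3.87 (q = 0.0536), and Ifnlr1, which encodes a chain of the interferon lambda receptor, had 1 with a fold of 3.84 (q = 0.149). Oprd1, which encodes the delta opioid receptor, had 1 with a fold of 2.92. Dlgap3, the gene of a postsynaptic scaffold protein, and Epb41, the gene of protein 4.1 of the membrane skeleton, each had 1 control peak and no irradiated peak, with folds of 3.29 and 2.98. Pla2g5, Serinc2, Spocd1 and Trim63 each had 1 irradiated peak. None of these peaks had a q of at most 0.05, so a missing peak in the other list says only that no peak was listed there.

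**Figure D5:**
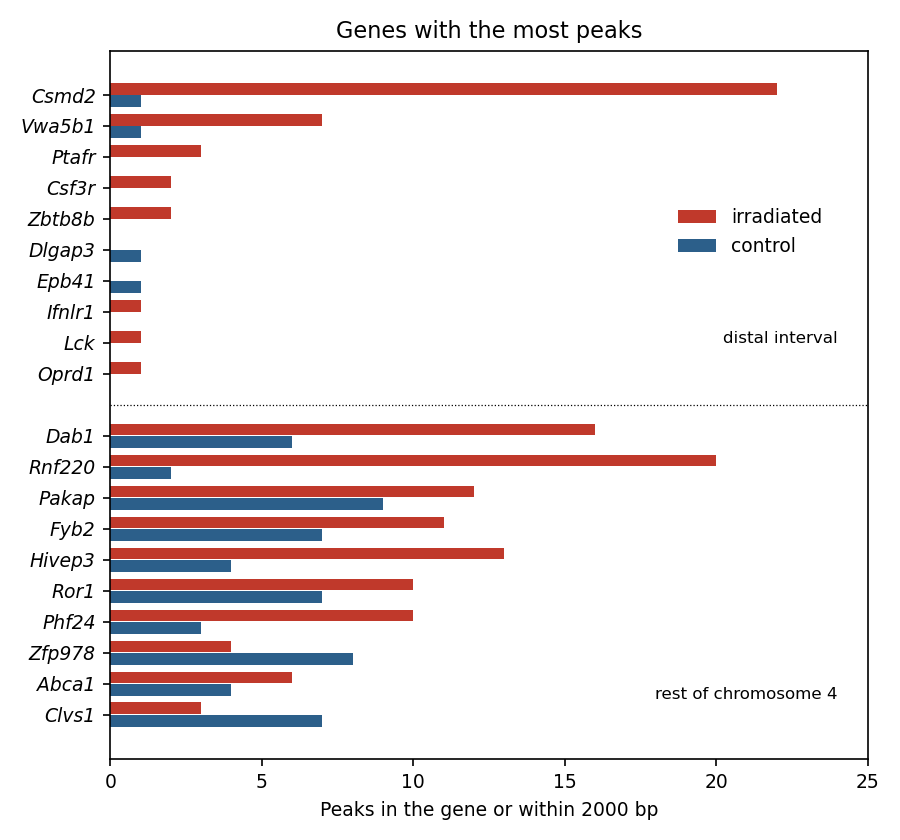
Number of irradiated (red) and control (blue) peaks in each gene or within 2000 bp, for the 10 genes with the most peaks in the distal interval (top) and on the rest of chromosome 4 (bottom). Ties were cut in order of name. Thus Frmpd1, Gabrr1 and Mroh7, with 10 peaks like Abca1 and Clvs1, are not shown. Nor are Pla2g5, Serinc2, Spocd1 and Trim63 of the interval, with 1 irradiated peak each. Csmd2 holds 22 irradiated peaks and 1 control peak, Rnf220 holds 20 and 2, and Zfp978 and Clvs1 hold more control than irradiated peaks.

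Outside the interval the fullest bin of the irradiated list, which starts at 47000001, held 49 irradiated and 21 control peaks. The bin at 45000001 held 46 irradiated and 18 control peaks, that at 117000001 held 45 irradiated and 10 control, that at 40000001 held 44 irradiated and 25 control, and that at 106000001 held 44 irradiated and 21 control. The fullest bin of the control list, at 147000001, held 14 irradiated and 26 control peaks, and that at 100000001 held 17 irradiated and 19 control. The cluster with the most irradiated peaks, 45 with 19 control peaks, filled the gap between Sec61b, a gene of the protein-conducting channel, and Nr4a3, a nuclear receptor gene, from 47509650 to 47963725. It held the irradiated peak at 47822204 to 47822692, with 20 reads, a fold of 7.09 (q = 1.12e-06), which overlapped no control peak. A second irradiated peak of the same q, with 21 reads and a fold of 7.41, lay in the leptin receptor gene Lepr at 101752270 to 101752661. Both stood over the lowest background of the list and were named after their values were seen.

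The ratio varied along the rest of the chromosome too. From 100000001 up to the interval there were 374 irradiated and 186 control peaks, a ratio of 2.01 (1.68 to 2.41). Within it, 117000001 to 121000000 held 144 irradiated and 44 control peaks, a ratio of 3.27 (2.32 to 4.7), and the last 2 Mb before the interval held 62 irradiated and 18 control peaks, a ratio of 3.44 (2.01 to 6.19). The region from 31 to 36 Mb held 77 irradiated and 25 control peaks, a ratio of 3.08 (1.94 to 5.05), and that from 82 to 100 Mb held 28 irradiated and 37 control peaks, a ratio of 0.757 (0.446 to 1.27). These stretches were chosen after their values were seen. Set against the genome, the interval had the highest ratio among 208 windows of 15 Mb, taken every 5 Mb, with 100 or more peaks over both lists; the next, from 75 to 90 Mb of chromosome 18, held 170 irradiated and 38 control peaks, a ratio of 4.47. The interval was chosen for its surplus, so its place in this order is a description.

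On the rest of the chromosome Dab1, which encodes the adaptor protein of reelin signalling, held 16 irradiated and 6 control peaks, and the strongest of each list overlapped, at 103689999 to 103690331 with a fold of 4.49 (q = 0.0536) in irradiated cells and at 103690113 to 103690578 with a fold of 4.08 (q = 0.385) in control cells. Rnf220, a ubiquitin ligase gene, held 20 irradiated and 2 control peaks, with a fold of 5.22 (q = 0.00279) at the strongest irradiated peak and a fold of 2.98 (q = 1) at the strongest control peak. Pakap, which encodes an anchor of protein kinase A joined to a paralemmin, held 12 irradiated and 9 control peaks. Ror1, the gene of a receptor for Wnt5a, held 10 irradiated and 7 control peaks, and Fyb2, an adaptor gene, 11 irradiated and 7 control. In Fyb2 the strongest peaks overlapped too, with folds of 4.81 in irradiated and 4.4 in control cells. Hivep3, a zinc finger gene, held 13 irradiated and 4 control peaks, Phf24, a gene with a PHD finger, 10 irradiated and 3 control, and Abca1, which encodes the exporter of cellular cholesterol, 6 irradiated and 4 control. Clvs1, which encodes a lipid-binding protein of neurons, went the other way by number, with 3 irradiated and 7 control peaks, though its strongest peak, with a fold of 5.79 (q = 0.00171), was an irradiated one.

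Some genes with irradiated peaks alone had control peaks close by. Frmpd1, with 10 irradiated peaks and no control peak, began 4.44 kb after a cluster of 11 control peaks at 45123818 to 45179984, a stretch with 11 irradiated peaks. Its own strongest peak had 20 reads and a fold of 5.14 (q = 0.000659). After Frmpd1 and Lao1, the lowest q of this class belonged to Ptpn3, a tyrosine phosphatase gene, and Fam205c, each with a q of 0.0119, Ccdc30 with 0.0164 and Acot11, a thioesterase gene, with 0.0226. The Acot11 peak stood over a raised background of 2.19 scaled reads. Among genes with control peaks alone, Coro2a, a coronin gene of the actin cytoskeleton, had the lowest q, 1.05e-10, from 71 reads over a background of 9.66 scaled reads, with a fold of 4.22. Vmn2r129, a vomeronasal receptor gene, and Zfp991 followed with folds of 5.69 and 5.37 and a q of 0.00198 each. Next were Olfr1341, with a fold of 4.22 (q = 0.115), Ccdc180, with a fold of 3.55 (q = 0.262), and Mup5, with a fold of 4.08 (q = 0.385). The peak with the lowest q of the chromosome in each list lay past the last protein-coding gene, at 156356708 to 156357267 in irradiated cells and at 156356658 to 156357338 in control cells, with 46 reads over 3 scaled reads and a fold of 6.62 in irradiated cells and 61 reads over 5 scaled reads and a fold of 6.47 in control cells.

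At overlapping sites the folds of the lists were close. In 100 pairs that overlapped 1 to 1, the median ratio of irradiated to control fold was 1.1 (quartiles 0.941 and 1.34), and the irradiated fold was the higher one in 68. A ChIP read counts for unequal amounts in the lists, so the folds are not on 1 scale. The other way stood Zfp600, a zinc finger gene, where 1 site had 14 reads, a fold of 4.38 (q = 0.0536) in irradiated cells (146173567 to 146174204) and 30 reads, a fold of 10.2 (q = 1.74e-13) in control cells (146173551 to 146174323). It stood in the zinc finger region in the 3 Mb from 145000001 on, with 17 irradiated and 34 control peaks, a ratio of 0.5 (0.262 to 0.92).

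Gene groups taken by name, some of them families with near-identical copies, differed in how many members had a peak. Of all genes 4.55% had irradiated peaks alone, 2.4% control peaks alone and 3.69% both. Of 27 genes named Zfp, 0 had irradiated peaks alone, 6 control peaks alone and 5 peaks of both lists, and some neighbours share a peak. They include genes outside the zinc finger region, such as Zfp618 (62965555 to 63139709), with 8 irradiated peaks and 1 control peak. At overlapping sites Zfp982 had a fold of 5.76 (q = 0.00033) in irradiated cells and a fold of 5.15 (q = 0.00382) in control cells, and Zfp978, with 4 irradiated and 8 control peaks, a fold of 5.75 in irradiated and 5.28 in control cells. Of 22 Mup genes 0 had an irradiated peak and 2, Mup4 and Mup5, had control peaks. Of 18 type I interferon genes 2 had irradiated peaks alone, 4 control peaks alone and 1, Ifnab, both; the strongest irradiated peak, near Ifna9, had a fold of 4.16 (q = 0.0536), and that of Ifna4 in control cells a fold of 3.75 (q = 0.385). Of 24 olfactory receptor genes 2 had irradiated peaks alone, 3 control peaks alone and 2 both. Of 24 Pramel genes 1, Pramel17, had a control peak, of 3 vomeronasal receptor genes 1, Vmn2r129, did, of 17 Cyp4 and Cyp2j genes 1, Cyp4x1, had an irradiated peak with a fold of 4.16, and 0 of 11 Skint genes had any. Reads from copies that differ little can be placed on the wrong copy, and the sources used here do not say how such reads were treated, so peaks within families of such copies are uncertain.

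Of 30 developmental transcription factor genes, the class that H3K27me3 typically covers, 4 had irradiated peaks alone and 0 any control peak. Among all genes 4.55% had irradiated peaks alone, 2.4% control peaks alone and 3.69% both. At these shares few of 30 genes would have a control peak. None of the 4 had a peak with a q of at most 0.05. They were Pax5, a B cell regulator, with 4 peaks (fold 3.02 at the strongest), Prdm16, a brown fat and neural regulator, with 2 (fold 3.25), Heyl, a Notch target, with 1 (fold 2.74), and Bnc2, a zinc finger gene, with 1 (fold 2.99). Of 25 promoter windows of 22 of these genes, with a median of 22 CpG, 0 held a peak. Some of the marked members, such as Prdm16 (154316122 to 154637360) and Bnc2 (84266804 to 84676029), are long, and gene length was not taken into account. Of 7 secreted patterning genes 2 had irradiated peaks alone, Draxin, an axon guidance gene, with a fold of 3.91 (q = 0.0395), and Gdf6, of the bone morphogenetic protein family, with a fold of 3.61 (q = 0.188).

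Of 20 leukocyte genes 5 had irradiated peaks alone and 0 any control peak. Among all genes 4.55% had irradiated peaks alone, 2.4% control peaks alone and 3.69% both, so few of 20 would have a control peak. Of the 5, 4 lie in the interval that was chosen for its irradiated surplus. They were Lck, Ifnlr1, Csf3r and Ptafr of the interval and Tnfrsf8, which encodes the receptor CD30, and none had a q of at most 0.05. Of 22 neuronal genes 5 had irradiated peaks alone, 1 control peaks alone and 3 both (4.55%, 2.4% and 3.69% of all genes), with 45 irradiated and 6 control peaks, of which Csmd2 held 22 irradiated and 1 control. Some of the marked members, such as Csmd2 and Camta1 (151059523 to 151861768), are long, and these shares were not adjusted for gene length. Gabrr1, the gene of a GABA receptor subunit, had 8 irradiated and 2 control peaks, with a fold of 4.74 (q = 0.0119) in irradiated cells and a fold of 2.95 (q = 1) in control cells. Grin3a, which encodes an NMDA receptor subunit, had 1 irradiated peak, with a fold of 5.14, and 2 control peaks, the strongest with a fold of 3.43. Camta1, a calmodulin-binding transcription activator gene, had 3 irradiated peaks (fold 4.32 at the strongest) and no control peak. Against the same shares, of 15 extracellular matrix genes 0 had irradiated peaks alone, 2 control peaks alone (Frem1 and Pappa) and 2 both (Adamtsl1 and Svep1); Svep1 had 5 irradiated peaks (fold 4.81 at the strongest) and 2 control peaks (fold 3.43 at the strongest).

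None of 17 genes of the response to DNA damage and of cell cycle arrest, which include Cdkn2a, Cdkn2b, Sesn2 and Trp73, had a peak in either list, although 7 irradiated peaks lay in the cluster that spans Sesn2, from 132428998 to 132567318. None of 10 Polycomb and chromatin regulator genes, 5 Eph receptor genes and 5 peptidylarginine deiminase genes had a peak. Of 5 secreted phospholipase A2 genes, Pla2g5 had 1 irradiated peak, with a fold of 3.84 (q = 0.149). On chromosome 4 as a whole 1144 of the 1301 genes (87.9%) had no peak in either list, and 10.6% of all genes of the genome had one.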

How the data were processed

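For each H3K27me3 library the authors deposited a list of called regions on mm10. The submitters' processing notes name BWA and deepTools; no source used here names the peak caller. Per the labels, the libraries came from chromatin of fixed cells and were sequenced in pairs. Start, end and summit position, deposited by the authors, are other values, in bp. The score in the deposited lists equals 10 times −log10 p without its decimals, for 100% of lines. The ratio column, deposited by the authors, is the fold at the summit. Their −log10 p-values are unadjusted and their −log10 q-values adjusted, as deposited. The largest p was 0.00499 in the irradiated and 0.00495 in the control list.

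Lines with the same interval were merged, the highest summit being kept. ChIP reads and background were recovered from fold and p with a Poisson model (fold is scaled pileup plus 1 over background plus 1), which gave whole reads for 100% of lines within 0.01, with more than 1 solution for 0.936% of irradiated and 0.0794% of control lines. On simulated lists of 1335 and 1338 peaks, built with the same model from the recovered values, it recovered 100%. That checks the arithmetic only and cannot show that the caller used this model. Library totals are unknown, and precision is limited by the few reads per summit. Genes and promoters came from RefSeq (GRCm38.p6, the assembly of mm10). Bins and the interval were assigned by peak midpoint. Python 3.11.15, SciPy 1.17.1 and pandas 2.3.3 were used.

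Members, lists and the interval were chosen with earlier results of these data known. Named genes were those with the most peaks inside and outside the interval (10 each, ties cut in order of name), the lowest q per class (6 each, predicted genes left out) and up to 4 per list. Alternatives changed the threshold, numbers of peaks, merging, overlap, gene window and interval edges.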

Additional observations from a re-analysis of the deposited data

How the results depend on the processing

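With a q of at most 0.05 the irradiated to control ratio of peaks was 3.91 on chromosome 4 and 3.87 outside the distal interval. The interval then held 6.98% of irradiated peaks. Of the peaks with such a q, 23.3% of irradiated and 33.3% of control ones overlapped a peak of any q in the other list. With both lists held to this q, 24, 5 and 5 genes had irradiated peaks alone, control peaks alone and both. With −log10 p at 5 or more the ratios were 4.91 and 4.92, and the interval held 5.19% of irradiated peaks. With equal numbers of peaks the ratios were 1.1 on the chromosome, 1.02 outside and 2.96 in the interval, the interval held 11.2% of irradiated peaks, the overlaps were 12.3% and 13% and 42 genes had irradiated peaks alone. With peaks within 5000 bp merged the ratios were 1.57 and 1.4. The interval held 16.8% of irradiated peaks with each edge moved out by 1 Mb and 11.1% with each moved in by 1 Mb. With a reciprocal overlap of 50% the shares were 5.28% and 9.88%, and within 1000 bp 17.7% and 30.8%. With peaks over a background under 1.5 times the lowest, chosen after seeing the data, the ratios were 1.48 and 1.39. The interval then held 9.31% of irradiated peaks, and 43 genes had irradiated peaks alone. Of such irradiated peaks on the whole chromosome, 12.3% overlapped a control peak of any background. The cause of these shifts was not tested, beyond fewer peaks being counted. The other 27 values stayed within the interval of the reported value or within 1.5 times its count. The ratio was higher in the interval than outside in 6 of 7 alternatives, the exception being −log10 p at 5 or more (4.67, 1.3 to 25.3, in the interval). The interval was chosen for its surplus and the alternatives recount the same peaks, so this tally is a description and no support for the surplus. With a q of at most 0.05 the interval ratio was 4.5, with an exact interval of 0.931 to 42.8 that takes in 1. No paired analysis was possible because each group has 1 library. The summits rest on few reads, and whether an unlisted site lacks the mark or was missed was not tested.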
